A study of Rattus norvegicus with 24 samples.

Results

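Prkcq, Dgkh and Pla2g4b encode enzymes that read, remove or release lipid second messengers, and their expression was described in the rostral posterior hypothalamic (rPH) region of rats after repeated loud noise. The 3 genes were chosen by the study's own lists of differentially expressed genes from these rats, out of 32883 genes in the count table. All 3 were among the 16202 genes that passed the filter on low counts. All 3 were selected on the AS versus RS7 comparison, which was the only one for Dgkh (ENSRNOG00000010065). Pla2g4b (ENSRNOG00000007447) was also selected on C versus RS7, and Prkcq (ENSRNOG00000019057) on both C versus RS7 and C versus RS3. Values from those comparisons are therefore given as a description without a test. The remaining comparisons of each gene were tested, although they share rats with the ones that selected it.

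The animals were adult male Sprague-Dawley rats from Envigo in 4 groups of 6. Control rats (C) had no noise, and the other groups had 1 (AS), 3 (RS3) or 7 (RS7) exposures to loud noise, and every rat was killed 24 h after its final session. A block of tissue around the rPH region was taken from each rat for polyA RNA sequencing, so each library was a separate animal and a mixture of cell types. The comparisons ask how expression in this region differs with the number of exposures to the same stressor. The study left out 1 rat per group, found here to be numbers 20 (C), 18 (AS), 8 (RS3) and 1 (RS7), and the group values below are from the other 20 rats. Their total counts lay between 8087697 and 16947298 per rat, with a median of 11298078 in C, 11858909 in AS, 12188012 in RS3 and 14189794 in RS7.

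Receptors coupled to Gq activate phospholipase C, which splits a membrane phosphoinositide into inositol trisphosphate and diacylglycerol. Diacylglycerol recruits protein kinase C enzymes to the membrane, diacylglycerol kinases end that signal by turning the lipid into phosphatidic acid, and phospholipases A2 release fatty acids such as arachidonic acid from membrane phospholipids. In neurons these lipids act on excitability, transmitter release and the synthesis of endocannabinoids.

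Prkcq encodes protein kinase C theta, a form that responds to diacylglycerol without needing calcium and is best known from T cells. Levels are given as CPM, the usual scaling of counts to library size, with edgeR's TMM factors applied. In C rats 19, 21, 22, 23 and 24, Prkcq had 28.4, 24.6, 35.2, 43.0 and 34.3 CPM. In AS rats 13 to 17 it had 40.3, 33.6, 37.8, 33.7 and 33.6 CPM. The AS rats all lay within the range of the C rats. RS3 rats 7, 9, 10, 11 and 12 had 42.7, 51.2, 50.2, 38.7 and 55.7 CPM, and RS7 rats 2 to 6 had 48.2, 49.8, 54.6, 57.0 and 61.7 CPM. All 5 RS7 rats were above every C and AS rat, whereas RS3 rats 7 and 11 overlapped the C rats and RS3 rat 11 the AS rats.

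The group means of Prkcq were ordered C, AS, RS3 and RS7, at 33.1 ± 7.01, 35.8 ± 3.08, 47.7 ± 6.87 and 54.3 ± 5.49 CPM (SD, n = 5 rats each). Each neighbouring pair in this order overlapped, AS and RS3 included. The largest step between neighbouring means lay between AS and RS3. The comparisons that selected the gene all span that step, so its place is a description only. In the comparisons that selected the gene, the log2 fold change was 0.52 (SE 0.119) from C to RS3, 0.70 (SE 0.118) from C to RS7 and 0.60 (SE 0.116) from AS to RS7, each written as the group with more exposures minus the other. In the comparisons that did not select it, Prkcq was not called by the quasi-likelihood test of edgeR at an adjusted p of 0.05 or less, where p was adjusted over all genes tested by the Benjamini-Hochberg method. From AS to RS3 the log2 fold change was 0.42 (SE 0.117, edgeR unadjusted p = 0.00193, adjusted p = 0.789), and 4 of 5 RS3 rats were above every AS rat. It was 0.10 (SE 0.121, edgeR adjusted p = 0.799) from C to AS and 0.18 (SE 0.114, edgeR adjusted p = 0.702) from RS3 to RS7. In bulk tissue, more cells that express a gene and more RNA per cell cannot be told apart, nor can fewer cells and less RNA per cell.

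Dgkh encodes diacylglycerol kinase eta, which phosphorylates diacylglycerol. In the C rats, in the order given for Prkcq, it had 1.31, 1.46, 1.89, 2.01 and 2.92 CPM, and in the AS rats 1.75, 1.06, 1.32, 0.55 and 1.15 CPM. The RS3 rats had 1.84, 2.73, 2.32, 2.12 and 2.09 CPM, and the RS7 rats 2.37, 3.38, 3.41, 2.59 and 5.00 CPM. These levels rest on between 7 and 64 counts per rat, so that counting error alone gives a coefficient of variation of 26.4% at the mean count of the AS group, where 37.2% was observed, and 14.7% in the RS7 group, where 30.9% was observed. AS rat 16 had the lowest level and RS7 rat 6 the highest.

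The AS group had the lowest mean of Dgkh, 1.16 ± 0.433 CPM, followed by C at 1.92 ± 0.629, RS3 at 2.22 ± 0.333 and RS7 at 3.35 ± 1.03 CPM (SD, n = 5 rats each). This order differed from that of Prkcq in the place of the AS group. In the AS versus RS7 comparison, which selected the gene, its log2 fold change was 1.501 (SE 0.252) and the rats of both groups did not overlap. Each neighbouring pair in the order of the means overlapped, AS and C included. None of the other comparisons was called by edgeR's quasi-likelihood test. From C to RS7 the log2 fold change was 0.78 (SE 0.236, edgeR unadjusted p = 0.00294, Benjamini-Hochberg adjusted p = 0.108), with 3 of 5 RS7 rats above every C rat. From AS to RS3 it was 0.94 (SE 0.267, edgeR unadjusted p = 0.00164, adjusted p = 0.789), and all 5 RS3 rats were above every AS rat. From C to AS it was -0.72 (SE 0.281, edgeR adjusted p = 0.461), with 3 of 5 AS rats below every C rat. It was 0.56 (SE 0.223, edgeR adjusted p = 0.631) from RS3 to RS7 and 0.22 (SE 0.249, edgeR adjusted p = 0.688) from C to RS3.

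Pla2g4b encodes a calcium-dependent cytosolic phospholipase A2, of the beta type. The C rats had 6.09, 8.38, 6.49, 7.59 and 6.19 CPM and the AS rats 6.18, 5.79, 7.35, 6.05 and 6.14 CPM. The RS3 rats had 7.35, 5.40, 4.51, 4.93 and 4.43 CPM, and the RS7 rats 4.74, 5.23, 3.74, 4.04 and 2.89 CPM. The direction was opposite to that of the other members, with all 5 RS7 rats below every C and AS rat. RS3 rat 7 stood above the other RS3 rats and within the range of the C rats, and the other 4 RS3 rats were below every C and AS rat.

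The group means of Pla2g4b went down in the order C, AS, RS3 and RS7, at 6.95 ± 0.998, 6.30 ± 0.606, 5.32 ± 1.20 and 4.13 ± 0.904 CPM (SD, n = 5 rats each). Each neighbouring pair in this order overlapped. In the comparisons that selected the gene the log2 fold change was -0.74 (SE 0.150) from C to RS7 and -0.61 (SE 0.149) from AS to RS7. No other comparison was called. By edgeR's quasi-likelihood test it was -0.40 (SE 0.147, unadjusted p = 0.0126, Benjamini-Hochberg adjusted p = 0.225) from C to RS3, where 4 of 5 RS3 rats were below every C rat. From AS to RS3 it was -0.26 (SE 0.146, edgeR adjusted p = 1.00), from RS3 to RS7 -0.35 (SE 0.152, edgeR adjusted p = 0.637) and from C to AS -0.13 (SE 0.145, edgeR adjusted p = 0.764). In the RefSeq annotation of build GRCr8, Pla2g4b overlaps its neighbour Jmjd7 by 305 bases on the same strand. The reads were mapped to rn6, an older build in which the overlap was not examined. How reads in such an overlap were counted is not given in the sources used here, so the level of Pla2g4b may hold reads of Jmjd7.

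**Figure D1:**
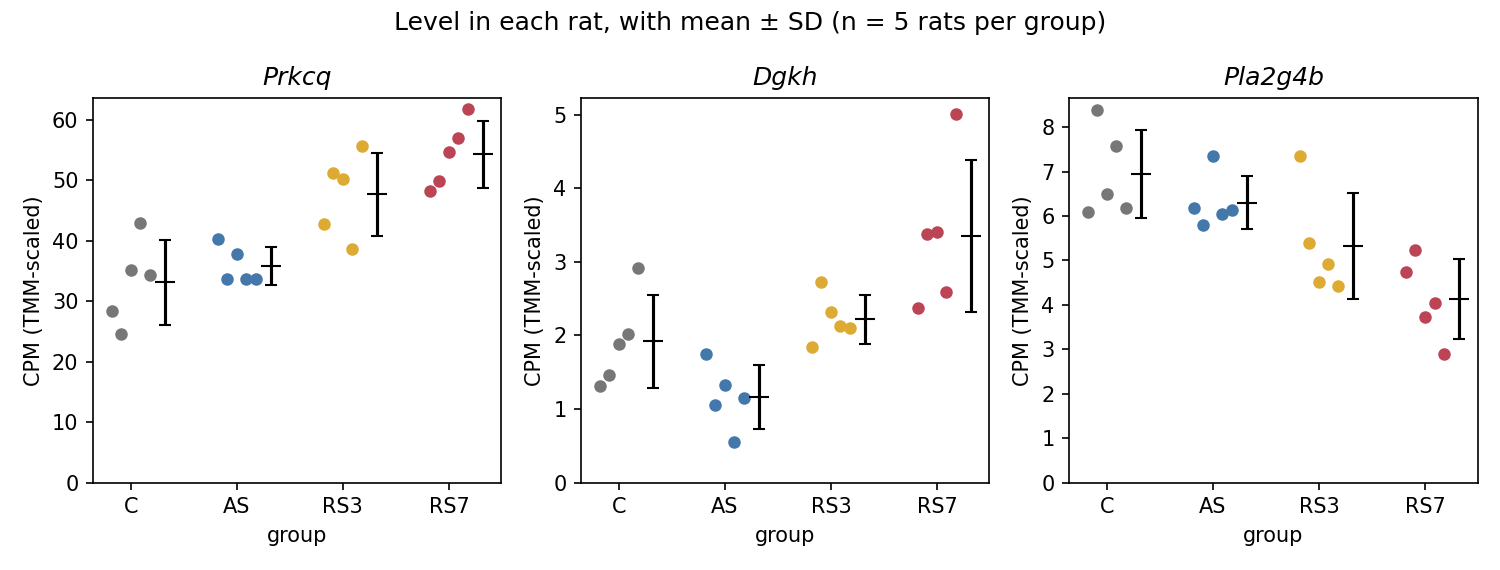
CPM of Prkcq, Dgkh and Pla2g4b (vertical axes, from 0) in each of the 20 rats by group (horizontal axis), with points for rats and bars for the mean ± SD of 5 rats. For Prkcq the RS7 rats lie between 48.2 and 61.7 CPM and the C rats between 24.6 and 43.0, for Dgkh the AS group has the lowest mean (1.16 CPM), and for Pla2g4b the RS7 rats lie between 2.89 and 5.23 CPM, below every C and AS rat.

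Over all genes tested, edgeR called 0 of 16202 (0%) in the C versus AS, C versus RS3, AS versus RS3 and RS3 versus RS7 comparisons, and 0 of the 3 genes in each. At an unadjusted p under 0.05 edgeR had 1625, 2639, 747 and 1218 genes in these 4 comparisons. The DESeq2 Wald test called 0, 38, 1 and 0 genes there, with Prkcq among the 38, and limma-voom with sample quality weights called 0 in each. Without C rat 23, edgeR called 17 genes in the C versus RS3 comparison, again with Prkcq. Between C and RS7 edgeR called 24 genes (0.148%), with Prkcq and Pla2g4b among them and Dgkh not. In the AS versus RS7 comparison it called 270 genes (1.67%), including all 3. Nothing is read from the members' calls in either comparison with RS7 just given, nor from that of Prkcq in C versus RS3, since these comparisons selected them.

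Whether a gene passed the threshold depended on single rats. In the C versus RS7 comparison the count of 24 became 0 when any of C rats 19 and 21 or RS7 rats 3 and 6 was left out, and 7 without RS7 rat 5. It was between 10 and 13 without AS rat 14, 15 or 17, RS3 rat 10 or 12, or RS7 rat 2, and between 37 and 75 without C rat 22 or 24, AS rat 13, or RS3 rat 7, 9 or 11. It was 241 without C rat 23 and 560 without RS7 rat 4. As a description, the log2 fold changes there lay between 0.62 and 0.82 for Prkcq and between -0.83 and -0.65 for Pla2g4b with each rat left out in turn. Between AS and RS7 the count of 270 lay between 46 and 97 without AS rat 14, 16 or 17 or RS7 rat 3, 5 or 6. Whether Prkcq and Pla2g4b passed in these comparisons also changed with the rat left out, and is not read further, since the comparisons selected them.

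The CPM values of the groups did not overlap for Dgkh in the AS versus RS3 comparison, 1 of 3 members, against 0.889% of all genes tested. Neither of the other members was free of overlap there. In the C versus AS, C versus RS3 and RS3 versus RS7 comparisons the groups overlapped for all 3 members, against 1.17%, 2.28% and 1.54% of genes without overlap. Prkcq and Pla2g4b did not overlap between C and RS7, where 3.59% of genes did not, and all 3 did not overlap between AS and RS7, where 4.08% did not. The last 2 comparisons selected these genes and C versus RS3 selected Prkcq, so those counts are a description only. The same holds for Dgkh in AS versus RS3, which shares its AS rats with the comparison that selected the gene.

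The 4 rats that the study left out for low library quality were set beside the others in a normalization of all 24 rats. Their 10 most abundant genes held 25.1% of the counts in the C rat, number 20, then 46.4% in number 18 (AS), 24.9% in number 8 (RS3) and 33.8% in number 1 (RS7). Prkcq had 24.9, 38.3, 35.8 and 34.4 CPM in these 4 rats in that order. RS7 rat 1 was thus below the lowest of the other RS7 rats on that scale (45.7 CPM) and within the range of the C rats (23.2 to 40.4 CPM). Dgkh had 0.985, 0.383, 2.37 and 2.67 CPM in these rats in the same order, where AS rat 18 rests on 1 count. Pla2g4b had 7.56, 3.83, 4.86 and 3.43 CPM, with 10 counts in AS rat 18. For Dgkh and Pla2g4b, RS7 rat 1 lay within the range of the other RS7 rats. RS3 rat 8 was below the lowest of the other RS3 rats for Prkcq (36.4 CPM). For Dgkh, C rat 20 was below the other C rats (lowest 1.23 CPM) and AS rat 18 below the other AS rats (lowest 0.518 CPM). AS rat 18 was also below the other AS rats for Pla2g4b (lowest 5.45 CPM) and just above them for Prkcq (highest 38.2 CPM).

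Within groups, rats with more Prkcq tended to have more Dgkh. With the group means subtracted from log2 CPM, the correlation over 20 rats was r = 0.54 (permutation of the rats within groups, p = 0.014, Benjamini-Hochberg adjusted p = 0.0419 over 3 pairs of members), and rho = 0.61 (permutation p = 0.00891, adjusted p = 0.0267). Without C rats 21 and 23, the farthest from the median of Prkcq, r was 0.57. The adjusted p was past 0.05 in 12 of the 22 alternatives, among them all 24 rats (r = 0.36, adjusted p = 0.222) and the fits without C rat 19, 21 or 22, AS rat 13, 15 or 16, RS3 rat 7 or 9, or RS7 rat 2, 4 or 6, where r lay between 0.49 and 0.58. Prkcq and Pla2g4b had r = -0.36 (permutation p = 0.141, adjusted p = 0.203) and rho = -0.32 (permutation p = 0.23, adjusted p = 0.344), with r = -0.42 without the same 2 rats and, with single rats left out, between -0.53 (without C rat 23) and -0.24 (without C rat 21). Dgkh and Pla2g4b had r = -0.29 (permutation p = 0.203, adjusted p = 0.203) and rho = -0.16 (permutation p = 0.523, adjusted p = 0.523), with r = -0.34 without AS rat 16 and C rat 24. Without RS7 rat 6 alone that r was -0.09, so that much of it rests on this rat.

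The genes most like each member were sought among 725 other genes with a symbol, all of which come from the study's lists and so were themselves chosen for differing between these groups. Likeness was Pearson's r of log2 CPM over the 20 rats, given as a description without a test. Prkcq was most like Foxp2, a transcription factor (r = 0.92, rho = 0.93), Gabrb2, a subunit of the GABA-A receptor (r = 0.91, rho = 0.91), Mb21d2 (r = 0.91), Lypd6b (r = 0.91) and Lypd6 (r = 0.91). They ranked 1 to 5 among all 16201 other genes tested, and with the group means subtracted their r lay between 0.71 and 0.85. Foxp2 followed the same order of groups from AS onwards, with means of 52.9 CPM in C, 51.9 in AS, 70.7 in RS3 and 82.2 in RS7.

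Dgkh was most like the potassium channel gene Kcnh5 (r = 0.90, rho = 0.91), followed by Ttbk2 (r = 0.89), the Wnt receptor gene Fzd3 (r = 0.88), the NMDA receptor subunit gene Grin2a (r = 0.88) and Scai (r = 0.87). All 5 had their lowest mean in the AS group and their highest in RS7, as Dgkh did. Kcnh5, for example, had means of 5.17 CPM in C, 3.44 in AS, 7.03 in RS3 and 10.9 in RS7. Pla2g4b was most like the kinase gene Stk38 (r = 0.87, rho = 0.86), P3h3 (r = 0.84), the basement membrane collagen gene Col4a2 (r = 0.81), the RNA helicase gene Ddx39b (r = 0.81) and the noncoding Snhg11 (r = 0.79). These genes ranked 1, 3, 6, 8 and 10 among all genes tested, and all 5 had their lowest mean in RS7. The lists of likeness were not stable. With all 24 rats, 1 of 5 genes stayed on the list of Prkcq and 0 of 5 on those of Dgkh and Pla2g4b. Without the 2 rats farthest from the median, 3 of 5 stayed on each list. With the group means subtracted, 2 of 5 stayed for Prkcq and 3 of 5 for each of Dgkh and Pla2g4b.

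Of 151 genes listed for the pathway, 27 had an identifier that could be matched to a symbol, the members included. All 27 come from the study's lists from these samples, so neither their directions nor the sizes of their differences are independent evidence, and they cover too few of the pathway to describe it as a whole. Of the 24 genes besides the members, edgeR called 0 in every comparison but AS versus RS7, where it called 3 higher and 5 lower in RS7. In that comparison 11 were above 0 and 13 below, and 17 of the 24 had been selected on it. From C to RS7, 11 were above 0 and 13 below, and 11 of the 24 had been selected on that comparison. Their sizes are not compared with those of all genes, since the selection itself favours large differences.

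Upstream of diacylglycerol, the phospholipase C genes Plcd4 and Plcb4 had log2 fold changes of 0.33 (SE 0.066) and 0.35 (SE 0.108) from AS to RS7, of which edgeR called Plcd4. Among the diacylglycerol kinases, the only other gene with an identifier was Dgkq (theta), with 77.8 ± 3.75 CPM in AS and 68.7 ± 2.62 in RS7, a log2 fold change of -0.18 (SE 0.050) that was not called and had the opposite sign to that of Dgkh. Of other lipid enzymes, Dagla, which turns diacylglycerol into the endocannabinoid 2-arachidonoylglycerol, had 0.25 (SE 0.085), and Ddhd1, a phospholipase A1 that acts on phosphatidic acid, had 0.15 (SE 0.048), neither called.

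The other protein kinase C gene with an identifier was Prkcb, which encodes a calcium-dependent form. It had 120.0 ± 9.81 CPM in AS and 139.5 ± 4.58 CPM in RS7, a log2 fold change of 0.22 (SE 0.056) that edgeR called, in the same direction as Prkcq. Of proteins that bind diacylglycerol or are phosphorylated by protein kinase C, the guanine nucleotide exchange factor gene Rasgrp1 had 0.46 (SE 0.148) and the substrate gene Marcks -0.15 (SE 0.057), neither called, and the channel gene Trpc7 had -0.86 (SE 0.193), called. The other phospholipase A2 gene, Pla2g2c, a secreted form, had 9.85 ± 1.20 CPM in AS and 7.17 ± 1.40 in RS7, a log2 fold change of -0.46 (SE 0.118) that was called, in the direction of Pla2g4b. The cannabinoid receptor gene Cnr1 had -0.16 (SE 0.082), not called. Of 6 genes for inositol phosphate and phosphoinositide turnover, edgeR called Pip5k1a (-0.18, SE 0.046), Pitpnm2 (-0.19, SE 0.049) and Pitpnm3 (-0.34, SE 0.072), all lower in RS7. The others were not called and did not share a direction, with 0.42 (SE 0.130) for Inpp4b, 0.10 (SE 0.050) for Synj1 and -0.07 (SE 0.061) for Ip6k1. From C to RS7 the log2 fold change was 0.06 for Plcd4, -0.03 for Ddhd1 and 0.15 for Ip6k1. The AS group had the lowest mean of Plcd4 and Ddhd1, whereas the C group had the lowest mean of Ip6k1. Ddhd1 and Ip6k1 had opposite signs from C and from AS, whereas Plcd4 and the other genes named here had the same sign in both comparisons.

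**Figure D2:**
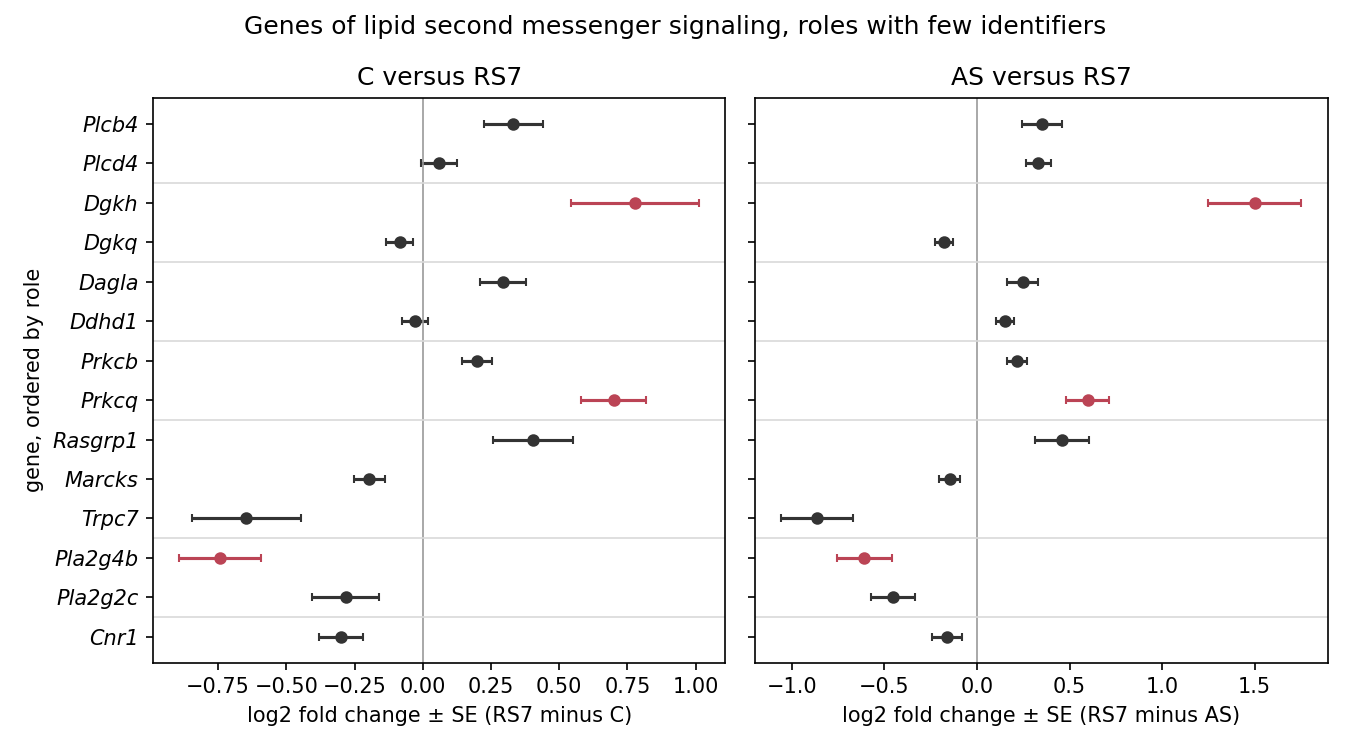
Log2 fold change ± SE from edgeR (horizontal axes, RS7 minus C on the left and RS7 minus AS on the right) of 14 pathway genes, those in roles with 5 or fewer identifiers (vertical axis, grouped by role and separated by lines), with the members in red. From AS to RS7 the values are 1.501 for Dgkh, 0.60 for Prkcq and -0.61 for Pla2g4b, beside -0.18 for Dgkq, 0.22 for Prkcb and -0.46 for Pla2g2c.

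Markers of cell types that the tissue block could hold were summed in each rat, without a test of the lists. Single markers were called by edgeR in the AS versus RS7 comparison only, and each of those had been selected on it. Of 13 genes listed as markers of dorsal thalamus 7 had an identifier, and none was at 0 in all rats. Slc17a6 was the most abundant, with 578.1 CPM of a mean sum of 1312 in C and 753.0 of 1705 in RS7. How far each gene is particular to dorsal thalamus in this tissue block was not tested. Their summed CPM was 1250, 1092, 1366, 1431 and 1421 in the C rats, 1513, 1259, 1492, 1127 and 1113 in the AS rats, 1590, 1734, 1507, 1135 and 1515 in the RS3 rats, and 1575, 1706, 1586, 2036 and 1622 in the RS7 rats. All 5 RS7 rats were above every C and AS rat, as for Prkcq, and RS3 rat 11 was low in both. Each gene of this sum was in the study's list of C versus RS7 or AS versus RS7, a selection that favours such a separation. RS3 rat 7, which overlapped the C rats for Prkcq, had a sum of 1590, above every C and AS rat. Of 10 markers of prethalamic and other GABAergic neurons 6 had an identifier, with Gad2 the most abundant. Their summed CPM was 941.1, 833.9, 869.3, 597.8 and 1015 in the C rats, 776.3, 999.1, 833.5, 698.2 and 947.8 in the AS rats, 577.9, 500.2, 654.2, 677.5 and 688.4 in the RS3 rats, and 653.6, 484.8, 620.1, 530.5 and 523.4 in the RS7 rats. Every RS3 and RS7 rat was below every AS rat. Of 15 markers of hypothalamic neurons 13 had an identifier, with Hap1 the most abundant. Their summed CPM was 1295, 992.9, 947.8, 774.5 and 1082 in the C rats, 1106, 1329, 973.1, 1030 and 1178 in the AS rats, 999.4, 673.6, 997.1, 919.1 and 897.4 in the RS3 rats, and 840.8, 697.9, 842.8, 577.9 and 627.1 in the RS7 rats. The AS group had the highest mean of this list (1123 ± 138.8) and the RS7 group the lowest (717.3 ± 121.4), a sum that rests mostly on the abundant Hap1, Ndn and Baiap3. From AS to RS7, 2 of the 13 genes went the other way, Lhx9 from 8.20 to 12.7 CPM (log2 fold change 0.63) and Nhlh2 from 14.3 to 18.8 CPM (0.40). The largest differences were in the hormone genes Avp, from 41.0 ± 28.3 to 2.25 ± 1.93 CPM (-4.11), Oxt, from 58.0 ± 51.3 to 4.24 ± 4.11 CPM (-3.71), and Trh, from 50.8 ± 24.9 to 11.4 ± 7.52 CPM (-2.12), which varied widely between rats and were not called.

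The astrocyte markers with an identifier, 3 of 7 with Aqp4 the most abundant, had summed means of 2050 ± 161.9 CPM in C, 1873 ± 73.9 in AS, 1831 ± 53.6 in RS3 and 1897 ± 100.6 in RS7, and all 4 groups overlapped. This sum hid opposite directions, since from AS to RS7 Slc1a2 went from 188.5 to 252.0 CPM (log2 fold change 0.42, called by edgeR) and Slc1a3 from 768.9 to 702.2 CPM (-0.13, not called). Of 5 endothelial markers only Plvap had an identifier, with means of 8.63 ± 1.22, 7.73 ± 0.963, 9.84 ± 2.16 and 11.1 ± 1.51 CPM in the same order. From AS to RS7 the log2 fold change of Plvap was 0.53 (SE 0.133), called by edgeR, and every RS7 rat was above every AS rat. None of the markers of oligodendrocytes (0 of 6), microglia (0 of 6) or T cells (0 of 8) had an identifier. The T cells in which Prkcq is best known could therefore not be followed. The matched markers come from the study's lists as well, so any separation of groups in their levels or sums is a description only. The part of these markers in the levels of Prkcq, Dgkh and Pla2g4b was not tested.

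**Figure D3:**
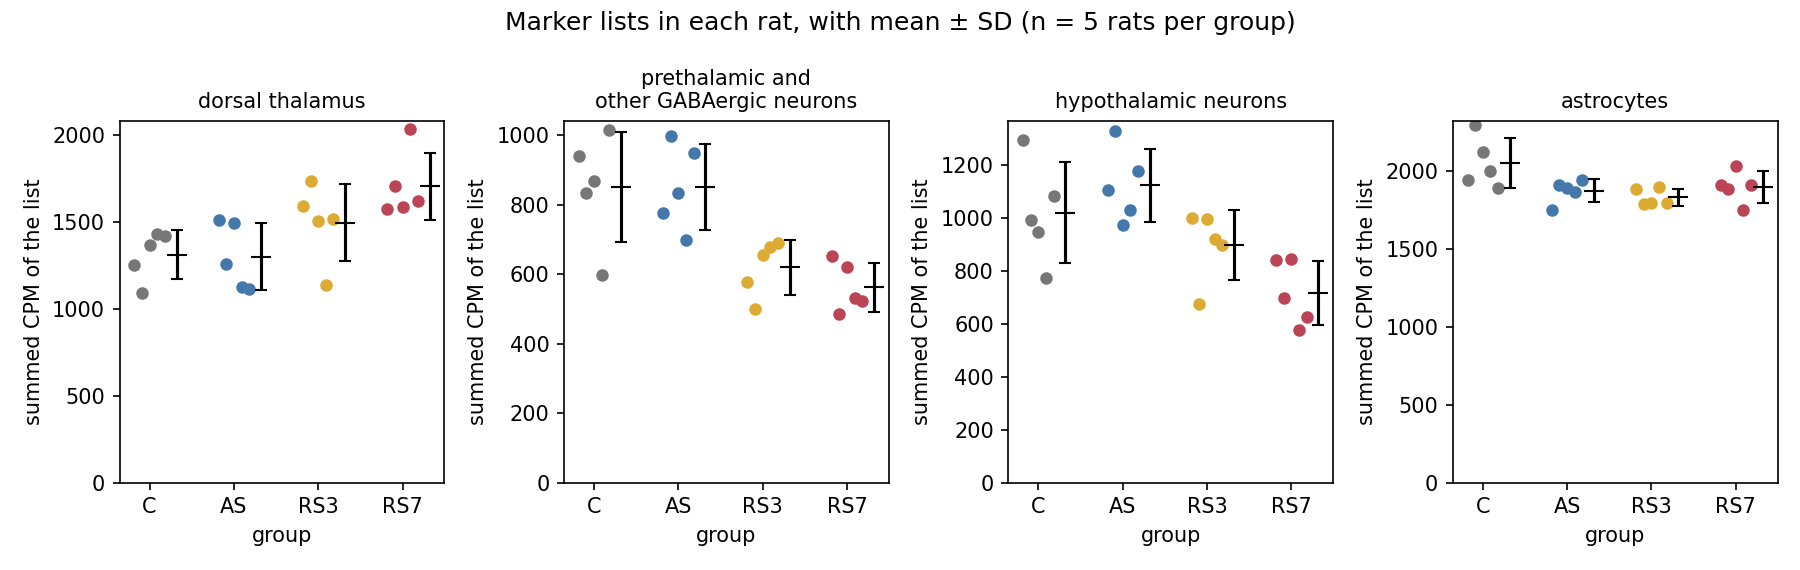
Summed CPM of the markers with an identifier (vertical axes, from 0) for 4 cell type lists in each rat by group (horizontal axis), with points for rats and bars for the mean ± SD of 5 rats. The RS7 rats lie between 1575 and 2036 for dorsal thalamus, above every C and AS rat, and between 484.8 and 653.6 for GABAergic neurons, below every AS rat.

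The promoters of the 3 members are shown because the group means of Prkcq and Dgkh were highest in RS7 and that of Pla2g4b lowest. RefSeq sequences for all 3, from 250 bases before to 50 bases after a transcript start on build GRCr8, lie at chr17:72288459-72288758 (Prkcq, minus strand), chr15:60559728-60560027 (Dgkh, minus strand) and chr3:127459023-127459322 (Pla2g4b, plus strand). The window of Pla2g4b lies inside the annotated limits of the gene, so it belongs to an inner start. Capitals mark each CG dinucleotide, a mark chosen after the motif search given next had been seen.
Prkcq: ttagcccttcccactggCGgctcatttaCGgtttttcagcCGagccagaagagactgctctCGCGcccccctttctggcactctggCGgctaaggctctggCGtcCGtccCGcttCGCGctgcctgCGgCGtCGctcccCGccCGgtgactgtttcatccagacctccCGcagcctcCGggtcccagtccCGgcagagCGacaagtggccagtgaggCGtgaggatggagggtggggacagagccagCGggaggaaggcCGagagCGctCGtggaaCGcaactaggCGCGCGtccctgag
Dgkh: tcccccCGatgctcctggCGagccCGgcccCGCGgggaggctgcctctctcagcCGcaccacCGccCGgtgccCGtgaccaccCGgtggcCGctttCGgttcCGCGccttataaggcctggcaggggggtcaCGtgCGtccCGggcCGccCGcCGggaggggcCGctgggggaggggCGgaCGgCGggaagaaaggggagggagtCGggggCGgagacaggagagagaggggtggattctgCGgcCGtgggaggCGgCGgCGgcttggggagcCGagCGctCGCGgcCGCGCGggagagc
Pla2g4b: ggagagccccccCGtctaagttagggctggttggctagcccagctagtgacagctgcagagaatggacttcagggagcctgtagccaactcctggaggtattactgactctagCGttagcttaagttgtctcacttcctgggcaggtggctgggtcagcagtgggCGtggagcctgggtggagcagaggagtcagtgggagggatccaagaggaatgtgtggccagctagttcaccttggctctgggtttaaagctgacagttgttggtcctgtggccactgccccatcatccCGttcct

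On either strand, none of the 3 promoters held TGACG, the core of the cAMP response element, or TGANTCA, the AP-1 site. These letters occurred in 21.2% and 7.33% of 33469 promoters of the same length, so that most promoters lack each of them, and their absence from these windows says nothing of the factors. A loose form of the glucocorticoid response element was absent as well, and occurred in 0.439%. The members differed in CG dinucleotides, with 29 in Prkcq, 38 in Dgkh and 4 in Pla2g4b against a median of 7 over all promoters. Their GC content was 67.0%, 77.0% and 57.3% against a median of 51.7%.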

How the data were processed

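The authors trimmed paired reads with Trimmomatic 0.36, mapped them to rn6 with HISAT2 2.0.5 and deposited raw counts per Ensembl gene made with featureCounts. The sources used here do not give the strandedness, how pairs were counted, or the handling of reads that map to more than 1 place. CPM and log2 CPM (prior count 2) were computed here with TMM factors. The rats left out by the study were found by matching the average normalized counts of 808 genes in its supplement, to a relative tolerance of 1e-06, over 1296 sets with 1 rat per group left out; the best set matched 808 genes and the next 1. Symbols (726 accepted) came from that supplement, used for names and list membership, since the reference table held 0 Ensembl identifiers.

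Genes were filtered by filterByExpr (minimum count 10) and tested with edgeR 4.0.16 in R 4.3.3, with the 4 groups in 1 quasi-likelihood fit and adjusted p of 0.05 or less. DESeq2 1.42.0, limma-voom (limma 3.58.1, without its robust option), DESeq2 size factors, no filter, all 24 rats, only the groups compared and each rat left out were alternatives. Correlations used 100000 permutations (scipy 1.17.1). The pathway genes named were called, were in a role with 5 or fewer that had an identifier, or were in the inositol role, added after the values were seen; not every called gene is named. The edgeR, DESeq2 and limma-voom tests were also run on simulated counts. The members and lists were chosen with earlier results of these data known, and the correlations between members and their alternatives after the data had been seen.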

Additional observations from a re-analysis of the deposited data

Results flagged for a closer look

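In 36 groups of 5 rats (3 members, 5 marker lists and the part of each library held by its 10 most abundant genes, each in 4 groups), 3 had a rat far from the others, where chance gives about 1 in 20. Pla2g4b had 7.35 CPM in AS rat 15 against 5.79 to 6.18 in the other AS rats. The summed dorsal thalamus markers had 2036 CPM in RS7 rat 5 against 1575 to 1706 in the other RS7 rats. The 10 most abundant genes held 18.8% of the counts in RS7 rat 4 against 13.1% to 14.0% in the other RS7 rats. They also held 20.1% in C rat 21 and 20.3% in C rat 22 against 13.6% to 14.5% in the other C rats, a pair that a test for 1 outlying rat does not find.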

How the results depend on the processing

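The log2 fold changes of the 3 members kept their sign in all 6 comparisons under all 27 alternatives, and those tested stayed on the same side of the threshold wherever an adjusted p was given (DESeq2 gave none for Dgkh and Pla2g4b in C versus RS3). The size of the small ones depended on single rats. When single rats were left out, the log2 fold change of Prkcq lay between 0.020 and 0.22 from C to AS and between 0.12 and 0.24 from RS3 to RS7, that of Dgkh between 0.094 and 0.42 from C to RS3, and that of Pla2g4b between -0.19 and -0.074 from C to AS and between -0.44 and -0.23 from RS3 to RS7. The lowest adjusted p among the tested comparisons was 0.0603, for Dgkh in C versus RS7 by DESeq2 (range over its alternatives 0.0603 to 0.325). The order of the group means held under all 22 alternatives for each member.

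The counts of called genes changed more. From C to RS7, with 24 called, DESeq2 called 419, limma-voom 164, no filter 64 and all 24 rats 46, and leaving out each rat gave 0 to 560. From AS to RS7, with 270 called, DESeq2 called 568, limma-voom 868, only the groups compared 433 and all 24 rats 129, and leaving out each rat gave 46 to 403. From C to RS3, with 0 called by edgeR (2639 at an unadjusted p under 0.05), DESeq2 called 38, limma-voom 0, and leaving out each rat gave 0 to 17. From AS to RS3, with 0 called by edgeR (747 at an unadjusted p under 0.05), DESeq2 called 1 and limma-voom 0. An alternative chosen after seeing the data, without C rats 21 and 22 and RS7 rat 4, those of the 20 rats whose 10 most abundant genes held the largest shares of the counts, called 0 genes from C to RS7 by edgeR (2127 at an unadjusted p under 0.05). With all 24 rats, r between Dgkh and Pla2g4b changed sign, to 0.0126. The cause was not tested.

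The calls of Prkcq and Pla2g4b in the comparisons that selected them changed under several alternatives, and no call of a member there is read. The depth limits Dgkh most, at 7 to 64 counts per rat. No paired analysis was possible because each rat belonged to 1 group and the groups share no rat numbers.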
